A study of Homo sapiens with 18 samples.

Results

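Amino acid transporter genes were compared between ABCC1-overexpressing cells and empty vector control cells in 3 RNA-seq experiments. The genes are the protein-coding members of the SLC1, SLC3, SLC7, SLC36, SLC38 and SLC43 families, taken by gene symbol whatever their values, with SLC7A11 left out. The rule takes 40 of the 19263 protein-coding genes, out of 57905 Ensembl genes counted in all. Of the 40 genes, 39 encode carriers. The other one, SLC7A6OS, is no carrier but a gene on the opposite strand of SLC7A6, and it is described apart.

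The cells were BE(2)-m17, a human line derived from neuroblastoma. Both lines carried pSBbi-Hyg-APP, a transposable vector for the amyloid precursor protein with hygromycin resistance. The ABCC1-overexpressing line, labelled ABCC1(WT), also carried pSBbi-Pur-ABCC1 with a codon-optimized insert, and the empty vector control line, labelled Puro, carried the same puromycin vector without an insert. Each of the experiments RNA1, RNA2 and RNA3 has 3 libraries of each line, 18 libraries in all, from 14000000 plated cells lysed on day 4. The study repeated its first experiment with cryopreserved cells and then with newly transfected cells, whereas the labels only number the experiments. Each line was a pool of stably transfected cells selected with antibiotics, so within an experiment the vector and the transfected pool cannot be told apart. Replicates came from weekly platings of a pool, and P-values measure the spread between these platings. The labels do not tie a replicate number to a week, and the main fits had no block for replicate number.

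The libraries held 8866994 to 57937653 assigned read pairs each. The codon-optimized ABCC1 insert had between 51035 and 594404 counts in the ABCC1-overexpressing libraries and at most 15 in the control libraries. Of 9 neuroblastoma markers, 8 or 9 were at 1 CPM per kb or more in each group, with MYCN the highest. Levels are given as CPM per kb, the counts scaled to a common library total with TMM and divided by the exon length in kilobases. The 356 protein-coding olfactory receptor genes, assumed to be unexpressed here, served as a measure of background reads. They averaged 0.00507 CPM per kb in the control cells of RNA1, 0.589 in those of RNA2 and 1.60 in those of RNA3. In every experiment the background was lower in all ABCC1-overexpressing libraries than in any control library. The log2 ratio of the means was −0.31 in RNA1, −0.94 in RNA2 and −0.33 in RNA3. Libraries of RNA1 were made with another kit and instrument than those of RNA2 and RNA3, so kit and experiment cannot be told apart, and lines were compared within an experiment. Changes in RNA per cell and in the share of cells that express a gene cannot be told apart in these bulk libraries.

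Amino acid carriers work as exchangers, which swap an amino acid for another, or as symporters and facilitators, which load cells from the medium. The large neutral amino acid exchangers of the SLC7 family are light chains that reach the membrane when joined to the heavy chain SLC3A2, also known as 4F2hc or CD98. SLC38A1 and SLC38A2 are loading carriers that bring in glutamine and other neutral amino acids with sodium, and exchangers trade these for leucine and other essential amino acids. SLC1A5 is itself an exchanger of neutral amino acids. SLC36A1 and SLC38A9 sit on lysosomes, where amino acids are reported to mTORC1, the kinase complex that couples amino acid supply to growth. Proliferating tumor cells are known for high SLC7A5, SLC3A2 and SLC1A5.

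The promoters of the 4 carriers that the comparisons below turn on are shown first. Each run holds the 250 bases before the most upstream RefSeq start of the gene, 5′ to 3′ on the gene's strand, from the RefSeq table of build GRCh38.p14. The SLC7A8 promoter is at chr14:23183661-23183910 on the minus strand, that of SLC3A2 at chr11:62855859-62856108 on the plus strand, that of SLC1A3 at chr5:36596338-36596587 on the plus strand and that of SLC38A4 at chr12:46825998-46826247 on the minus strand. Capitals mark a match to a searched motif.
SLC7A8: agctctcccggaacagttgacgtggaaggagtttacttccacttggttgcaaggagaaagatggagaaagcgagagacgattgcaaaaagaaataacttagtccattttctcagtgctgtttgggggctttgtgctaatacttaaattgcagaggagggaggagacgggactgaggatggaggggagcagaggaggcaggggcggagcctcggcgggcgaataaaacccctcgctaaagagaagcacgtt
SLC3A2: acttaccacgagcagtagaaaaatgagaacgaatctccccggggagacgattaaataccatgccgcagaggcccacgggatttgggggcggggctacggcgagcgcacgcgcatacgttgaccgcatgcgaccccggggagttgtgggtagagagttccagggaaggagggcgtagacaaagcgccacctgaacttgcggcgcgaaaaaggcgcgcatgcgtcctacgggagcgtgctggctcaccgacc
SLC1A3: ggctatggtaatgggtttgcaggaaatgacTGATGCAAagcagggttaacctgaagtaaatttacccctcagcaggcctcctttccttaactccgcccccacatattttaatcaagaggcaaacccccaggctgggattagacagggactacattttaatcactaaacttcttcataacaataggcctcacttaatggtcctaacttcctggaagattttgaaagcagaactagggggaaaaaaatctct
SLC38A4: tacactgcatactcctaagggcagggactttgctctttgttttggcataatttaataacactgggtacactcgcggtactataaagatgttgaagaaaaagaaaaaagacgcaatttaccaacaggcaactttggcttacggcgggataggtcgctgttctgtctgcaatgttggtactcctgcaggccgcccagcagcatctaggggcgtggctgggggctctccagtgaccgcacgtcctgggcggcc

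Both strands of these windows were searched for TGATGNAA, the core of the amino acid response element bound by ATF4 with C/EBP partners, and for CACGTG, the E-box bound by MYC family and TFEB proteins. Among the 32 of the 40 genes with an entry in the table, 1 held TGATGNAA, which was SLC1A3, with a match at position −220 relative to the start. The share was 3.12%, and 3.19% of all 27305 genes in the table held this motif. CACGTG was found in 4 of the 32, SLC1A7, SLC38A5, SLC43A1 and SLC7A5, or 12.5%, and in 6.46% of all genes. No gene of the set held both, and the windows of SLC7A8, SLC3A2 and SLC38A4 held neither. A match is a run of letters and does not show binding, and whether these starts are used in these cells was not tested.

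A few carriers made up most of the transporter signal in the control cells. In RNA1, SLC7A5, the leucine exchanger LAT1, was highest, with 240.3, 220.5 and 219.8 CPM per kb in control replicates 1, 2 and 3. The next were SLC1A5, the glutamine carrier ASCT2, at 189 ± 7.82 CPM per kb (SD, n = 3), and SLC7A1, a carrier of arginine and lysine, at 126 ± 0.175. SLC3A2 followed at 110.0 ± 2.43 and SLC38A1, a sodium-coupled glutamine carrier, at 106 ± 1.54. In this order the control libraries of each of these genes lay apart from those of the next, since SLC3A2 was at 107.3 CPM per kb or more and SLC38A1 at 107.0 or less. The 3 highest genes made up 56.7% of the summed level of the 40 genes, and the 5 highest 79.2%. The same 6 genes led in every experiment, with SLC38A2 as the sixth in RNA1 at 87.1 ± 3.10. Their order differed, however, with SLC1A5 first in RNA2 at 74.1 ± 13.4 and in RNA3 at 95.7 ± 24.3. In these experiments the ranges of neighbours in the order overlapped, for example SLC1A5 at 78.0 to 123 and SLC7A5 at 65.9 to 110.1 in the control libraries of RNA3.

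At the other end, 4 genes had no count in any control library of RNA1: SLC1A6, SLC36A2, SLC36A3 and SLC7A13. All 4 had counts in the repeat experiments, at levels within the range of the olfactory receptor genes, and SLC36A3 was at 1.18 ± 0.238 CPM per kb in RNA2 and 2.44 ± 0.572 in RNA3. The mean level in control cells was at or below the 95th percentile of the olfactory receptor genes for 7 of the 40 genes in RNA1, 18 in RNA2 and 26 in RNA3. A low level in RNA2 or RNA3 was therefore not distinguishable from background.

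**Figure D1:**
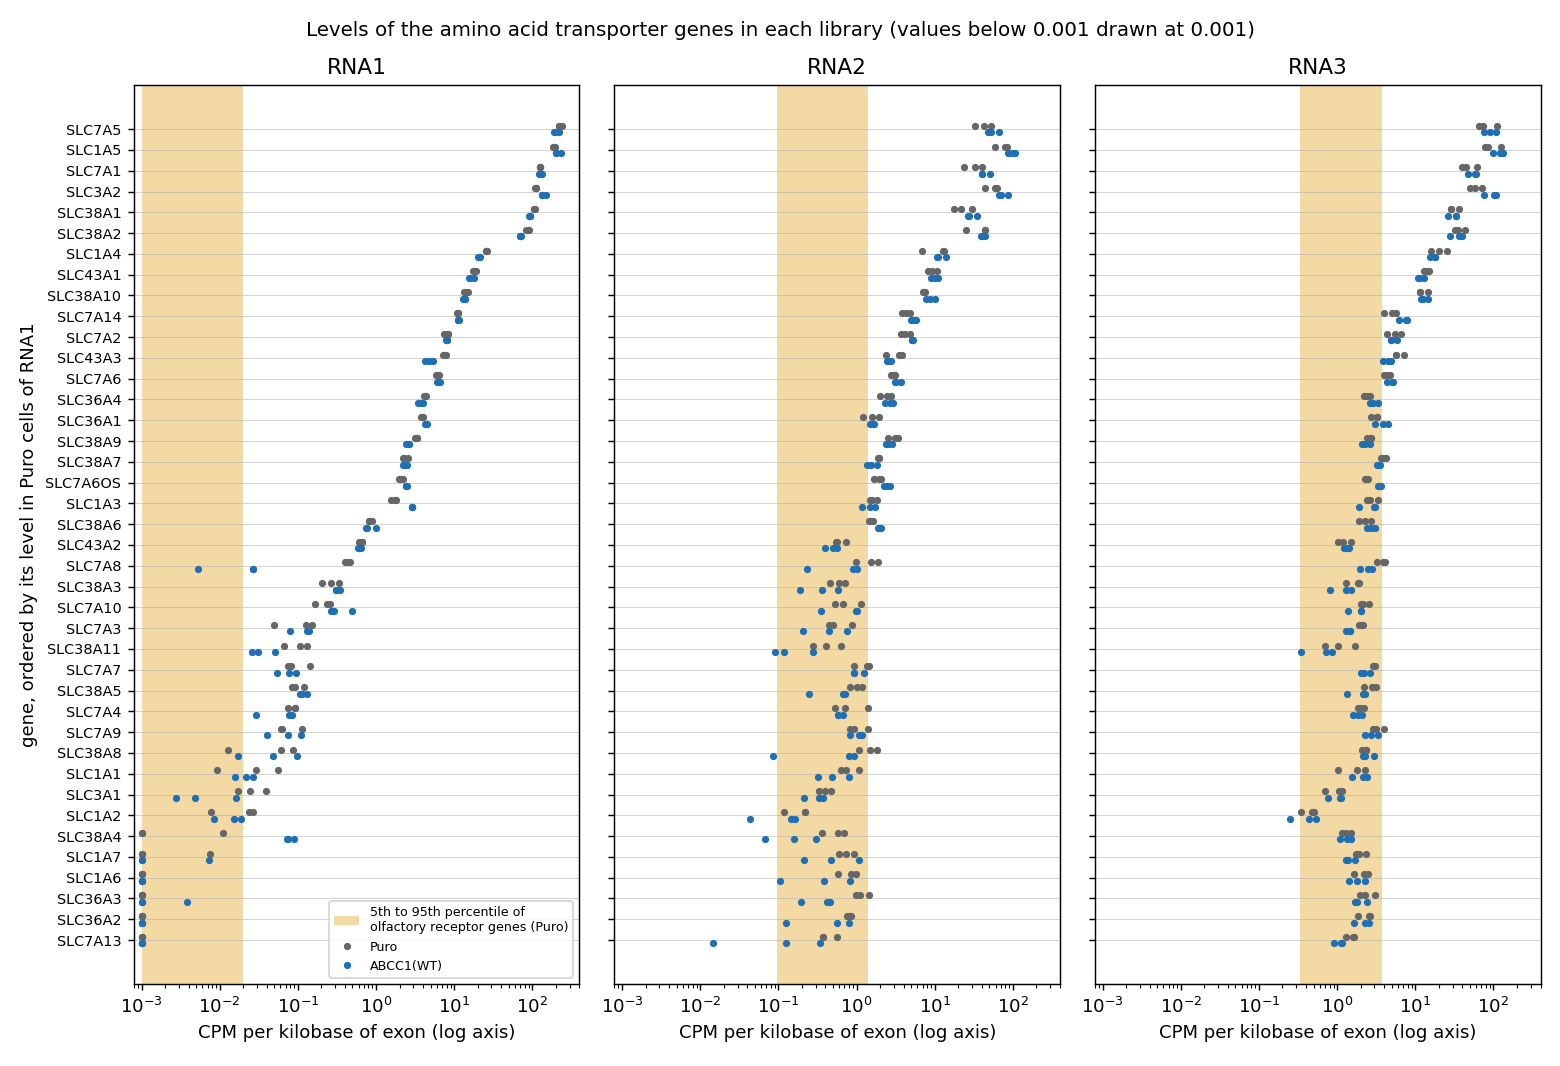
Level of each of the 40 genes in every library (CPM per kb of exon, log axis), with empty vector control libraries in grey and ABCC1-overexpressing libraries in blue; the shaded band spans the 5th to 95th percentile of the olfactory receptor genes in control cells. The 6 leading carriers lie above the band in all 3 experiments, whereas 26 of the 40 genes are at or below its upper edge in RNA3.

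In RNA1, 29 of the 40 genes had enough counts for the test and 11 did not. Of the 29, 12 passed edgeR's quasi-likelihood test at 0.05 after adjustment. In the ABCC1-overexpressing cells 5 of them were higher and 7 lower. This is 41.4% of those tested, beside 37.6% of all 16995 genes tested (17.9% higher and 19.7% lower) and 40.4% of the protein-coding genes. The median log2FC of the 29 genes was −0.02 and that of all genes tested 0.01. Of the 12, SLC7A8, SLC38A4 and SLC38A11 passed the filter on low counts only through the line where they were high. Their calls are descriptions. In RNA2 all 40 genes were tested and 1 was called, lower in the ABCC1-overexpressing cells, beside 1.7% of all genes (1.25% higher and 0.458% lower) and 2.88% of protein-coding genes. RNA3 also had 1 called gene of 40, again lower, beside 2.8% of all genes (2.03% higher and 0.767% lower) and 4.76% of protein-coding genes. In RNA3, 72.6% of all called genes were higher, and 82.9% with RLE size factors. The share of called genes was near the background share in each experiment. No gene was called in all 3 experiments, 1 was called in 2 of them, 12 in 1 and 27 in none. Replicates of a gene typically varied by 5.67% of its level in RNA1, 35.3% in RNA2 and 19.7% in RNA3, beyond counting noise.

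The joint fit normalized the 18 libraries together and tested the mean effect over the experiments, here the joint log2FC, and whether the effects differ between experiments. For each gene it used 1 estimate of the spread for all 18 libraries. Its P-values thus assume a common spread, whereas the typical spread was 5.67% in RNA1, 35.3% in RNA2 and 19.7% in RNA3. Owing to its own filter and scaling, the joint log2FC is not the average of the 3 values printed for a gene. Over the 16689 genes tested in each experiment, it was above that average by a median of 0.07, and a joint fit of genes with at least 10 counts in every library was below it by 0.12 (median −0.12). For the joint log2FC, 7 of the 40 genes were called, 4 higher and 3 lower, beside 13% of all genes (9.41% higher and 3.55% lower) and 27.3% of protein-coding genes. The split of directions depended on the scaling. Of all calls, 72.6% were higher, 57.9% with DESeq2, 57.1% with RLE size factors and 44.8% with at least 10 counts in every library. The 40 genes then held 4 higher and 5 lower calls with DESeq2, 4 and 4 with RLE size factors, and 3 and 6 with at least 10 counts, where 23 of them were tested and SLC7A8 and SLC38A11 were not. For the difference between experiments 3 of the 40 were called, SLC7A8, SLC38A4 and SLC1A3, beside 1.19% of all genes and 2.27% of protein-coding genes. These tests use the same libraries as the tests within each experiment and are not independent of them.

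**Figure D2:**
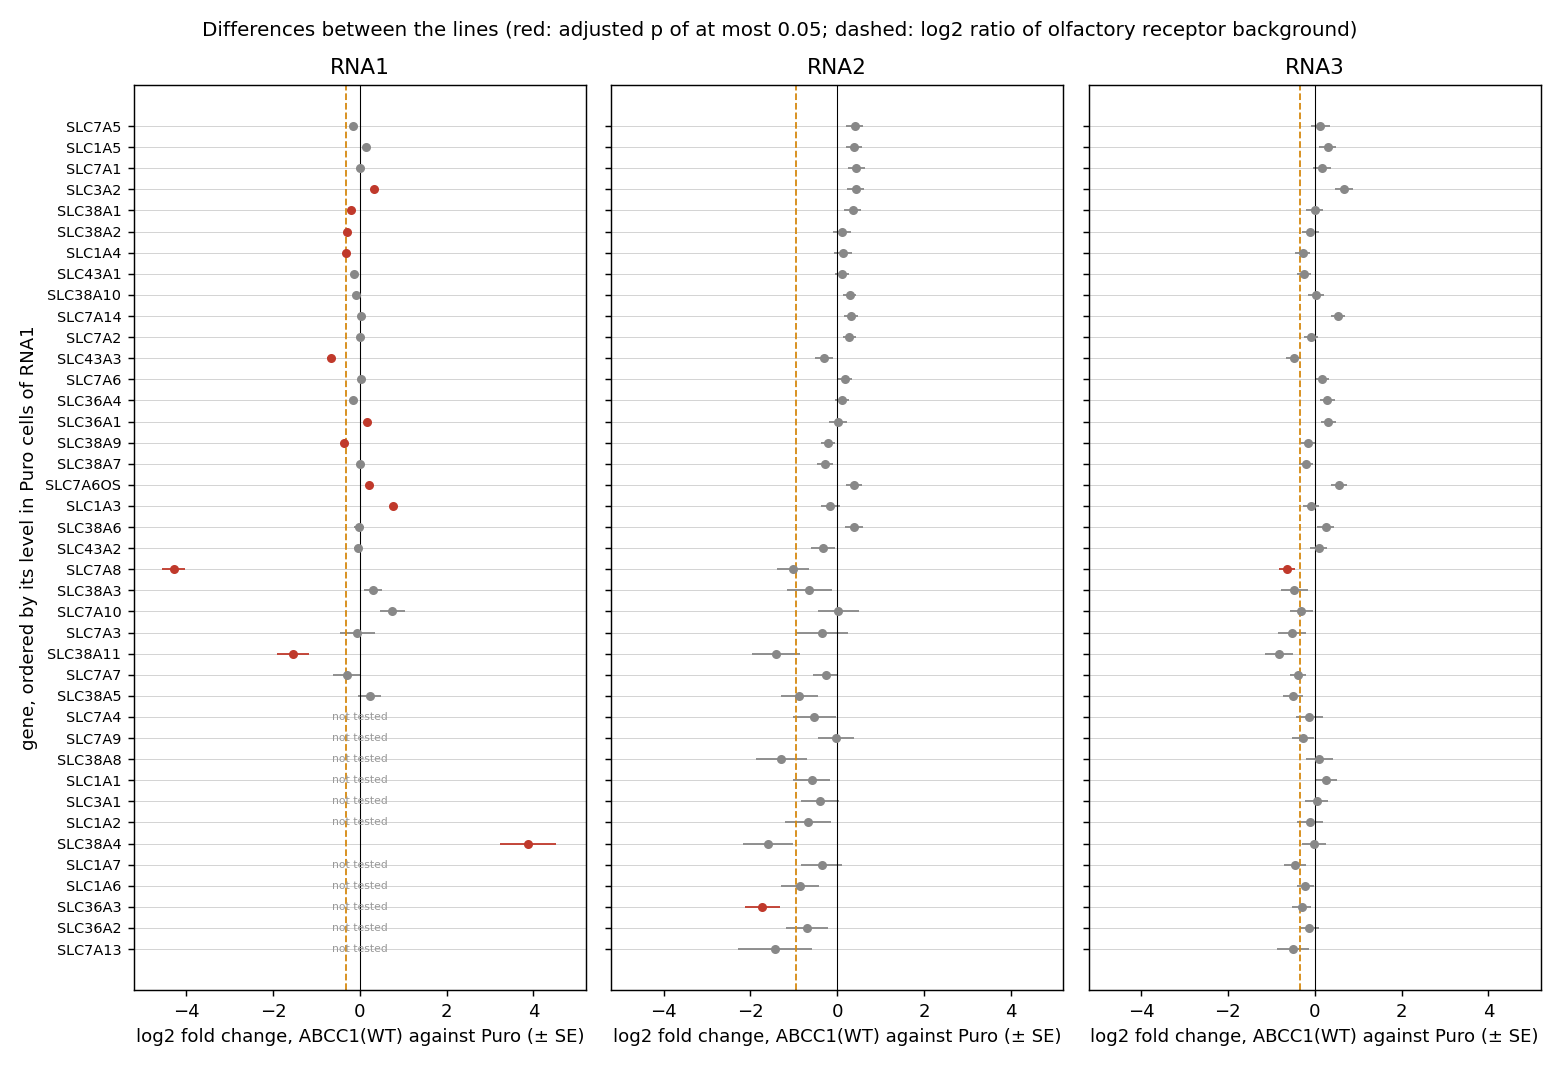
log2FC of each gene in ABCC1-overexpressing against empty vector control cells, with its standard error, in the 3 experiments; red points passed an adjusted P-value of 0.05 and the dashed line is the log2 ratio of the olfactory receptor background. Red points number 12 in RNA1 and 1 in each repeat, and SLC7A8 at −4.28 and SLC38A4 at 3.87 in RNA1 lie farthest from 0.

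Among the light chains, SLC7A8 carried the largest difference. SLC7A8 encodes LAT2, an exchanger of small and large neutral amino acids that pairs with SLC3A2, and lies at chr14:23594504-23652883 on the minus strand of GRCh37. It had 113, 75 and 74 counts in control replicates 1, 2 and 3 of RNA1 and 9, 1 and 9 counts in the ABCC1-overexpressing replicates. These counts correspond to 0.441, 0.468 and 0.398 CPM per kb in control cells and to 0.0270, 0.00526 and 0.0263 in ABCC1-overexpressing cells. Every ABCC1-overexpressing library was far below every control library, and the gene fell by 4.28 on the log2 scale (SE 0.265, adjusted P = 8.63e-07 by edgeR). SLC7A8 passed the filter of RNA1 only through the control libraries, so this call is a description. The ratio of the counts, scaled to library size, was 19.8 of control over ABCC1, with a 95% counting interval of 12.4 to 33.4. In control cells the level was 85.9 times the olfactory receptor background of RNA1, and in ABCC1-overexpressing cells 4.79 times.

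The repeat experiments gave a smaller difference in SLC7A8. In RNA2 the control libraries had 201, 174 and 230 counts, or 1.51, 0.990 and 1.88 CPM per kb, and the ABCC1-overexpressing libraries 36, 130 and 166 counts, or 0.234, 1.01 and 0.911 CPM per kb. The groups overlapped, and the log2FC was −1.02 (SE 0.369, adjusted P = 0.126 by edgeR). ABCC1 replicate 1, the lowest library, also had the lowest olfactory receptor background of RNA2 at 0.142 CPM per kb. In RNA3 the control libraries were at 3.90, 3.19 and 4.11 CPM per kb and the ABCC1-overexpressing libraries at 2.79, 2.47 and 1.94, from 208 to 253 and from 139 to 193 counts. Here the groups did not overlap, with a log2FC of −0.64 (SE 0.177, adjusted P = 0.0256 by edgeR). The level was 2.33 times the background in control cells and 1.89 times in ABCC1-overexpressing cells, within the range of the olfactory receptor genes in control cells, and the background itself differed by −0.33. After subtraction of the mean background of each group, the log2 ratio of the means was −4.80 in RNA1, −1.08 in RNA2 and −0.91 in RNA3. With the background of each library as a covariate the log2FC was 0.19 in RNA2 and −0.15 in RNA3, with adjusted P-values of 0.970 and 0.937. The background did not overlap between the lines, so this fit cannot split line from background. The call in RNA3 was also lost with RLE size factors (log2FC −0.57, adjusted P = 0.0516). It was lost without Puro replicate 1 (−0.58, 0.179) or 3 (−0.54, 0.250) and without ABCC1(WT) replicate 2 (−0.65, 0.101) or 3 (−0.50, 0.286), where each pair is a log2FC and an adjusted P-value by edgeR. The difference between experiments had an adjusted P-value of 1.61e-05 and held in the 21 alternative fits that could test it.

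SLC7A5, the other large neutral amino acid exchanger, was not called in any experiment by edgeR with TMM, but it was called lower in RNA1 with DESeq2, without a filter on low counts and without ABCC1(WT) replicate 3. Its ABCC1-overexpressing libraries had 194, 192 and 221 CPM per kb in RNA1, a log2FC of −0.17 (SE 0.062, adjusted P = 0.0559 by edgeR). In RNA2 SLC7A5 was at 32.4, 52.1 and 42.4 CPM per kb in control libraries and 67.2, 48.3 and 52.2 in ABCC1-overexpressing libraries. In RNA3 the values of SLC7A5 were 74.2, 110.1 and 65.9 against 76.5, 91.4 and 106. The groups overlapped in all 3 experiments, with a log2FC of 0.40 in RNA2 and 0.13 in RNA3. SLC7A6, another light chain of SLC3A2, had log2FC values of 0.03, 0.18 and 0.18 in RNA1, RNA2 and RNA3 and shares 44.5% of its exon bases with SLC7A6OS. SLC7A8 was the one light chain called by edgeR with TMM, of 5 tested in RNA1 and 7 in RNA3, and 0 of 7 were called in RNA2, beside 37.6% of all genes in RNA1, 2.8% in RNA3 and 1.7% in RNA2.

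SLC3A2, the heavy chain shared by these exchangers, was higher in the ABCC1-overexpressing cells. It lies at chr11:62623518-62656352 on the plus strand of GRCh37. In RNA1 its level was 112, 107 and 111 CPM per kb in control libraries and 132, 131 and 150.3 in ABCC1-overexpressing libraries. In RNA2 the values of SLC3A2 were 43.9, 59.2 and 63.4 against 86.2, 66.7 and 70.5, and in RNA3 50.03, 70.6 and 58.5 against 76.5, 101 and 108. All ABCC1-overexpressing libraries were above all control libraries in every experiment. The log2FC of SLC3A2 was 0.33 (SE 0.056, adjusted P = 0.00103 by edgeR) in RNA1, 0.42 (SE 0.193, adjusted P = 0.209) in RNA2 and 0.67 (SE 0.208, adjusted P = 0.0552) in RNA3. In RNA3 it was called with DESeq2, at least 10 counts in every library or protein-coding genes only, and without Puro replicate 2 or ABCC1(WT) replicate 1. It was also called there with a block for replicate number (adjusted P = 0.00511 by edgeR). The joint log2FC was 0.54 (SE 0.106, adjusted P = 0.000154), and 0.36 with at least 10 counts in every library (adjusted P = 0.000387). It was called in all 22 alternative fits, and the difference between experiments was not called (adjusted P = 0.894). At 37.3 times the background or more in the control cells of each experiment, SLC3A2 was well above background reads. SLC3A1, the other heavy chain, had too few counts for a test in RNA1, at 0.0269 ± 0.0112 CPM per kb in control cells, and 29.3% of its exon bases are shared with PREPL.

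Among the excitatory amino acid transporters, which take up glutamate and aspartate, SLC1A3 was the member tested in RNA1. SLC1A3 encodes GLAST, the glutamate transporter known from astrocytes, and lies at chr5:36606457-36688436 on the plus strand of GRCh37. It had 468, 261 and 350 counts in control replicates 1, 2 and 3 of RNA1, or 1.73, 1.54 and 1.79 CPM per kb. The ABCC1-overexpressing replicates had 1004, 577 and 1044 counts, or 2.86, 2.88 and 2.90 CPM per kb. The groups lay apart, and SLC1A3 rose by 0.77 on the log2 scale (SE 0.070, adjusted P = 1.41e-05 by edgeR). In RNA2 SLC1A3 was at 1.85, 1.60 and 1.48 CPM per kb in control libraries and at 1.74, 1.18 and 1.48 in ABCC1-overexpressing libraries. In RNA3 it was at 2.66, 2.42 and 3.31 against 2.94, 3.06 and 1.92. The groups overlapped in both repeats, with log2FC values of −0.16 (SE 0.217) and −0.08 (SE 0.182). After subtraction of the mean background of each group, the log2 ratio of the SLC1A3 means was 0.77 in RNA1, 0.14 in RNA2 and 0.20 in RNA3, so the sign in both repeats turned with the subtraction. In RNA3 its level in control cells was 1.75 times the background, within the range of the olfactory receptor genes. The difference of the SLC1A3 effect between experiments had an adjusted P-value of 0.0176. It was not called in 4 of 22 alternative fits, which left out Puro replicate 2 (adjusted P = 0.134) or 3 (0.0611) or ABCC1(WT) replicate 1 (0.0846) or 3 (0.0849) of RNA1. SLC1A1, SLC1A2, SLC1A6 and SLC1A7 were not tested in RNA1 and not called in RNA2 or RNA3 by edgeR with TMM. SLC1A6 was called in RNA2 without ABCC1(WT) replicate 3.

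In RNA1 the summed level of 17 markers of other cell types ranged from 34.8 to 36.0 CPM per kb in control libraries and from 49.0 to 49.8 in ABCC1-overexpressing libraries. Most of this sum came from LUM, DCN and PDGFRB, genes of mesenchymal cells, and all 3 were higher in each ABCC1-overexpressing library. Of the collagen genes of such cells, COL1A1 was at 0.0795 CPM per kb in control cells and 0.137 in ABCC1-overexpressing cells, without overlap of the libraries. COL3A1 was at 0.127 and 0.0908, with overlap. Of the 17 markers, 9 were above the 95th percentile of the olfactory receptor genes in control cells and 10 in ABCC1-overexpressing cells. PTPRC, which marks leukocytes, had 3 counts in the control libraries and 4 in the others, and KRT5, which marks epithelial cells, had 0 in all 6. COL1A2 had 1 count in the control libraries and 0 in the others, and CD3E and CDH5 also had 0 counts in the libraries of 1 line. In RNA2 the sum of the 17 markers was 26.3 to 35.2 against 23.2 to 26.3, and in RNA3 42.4 to 45.0 against 34.8 to 37.6. The part of these markers in the transporter results was not tested.

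**Figure D3:**
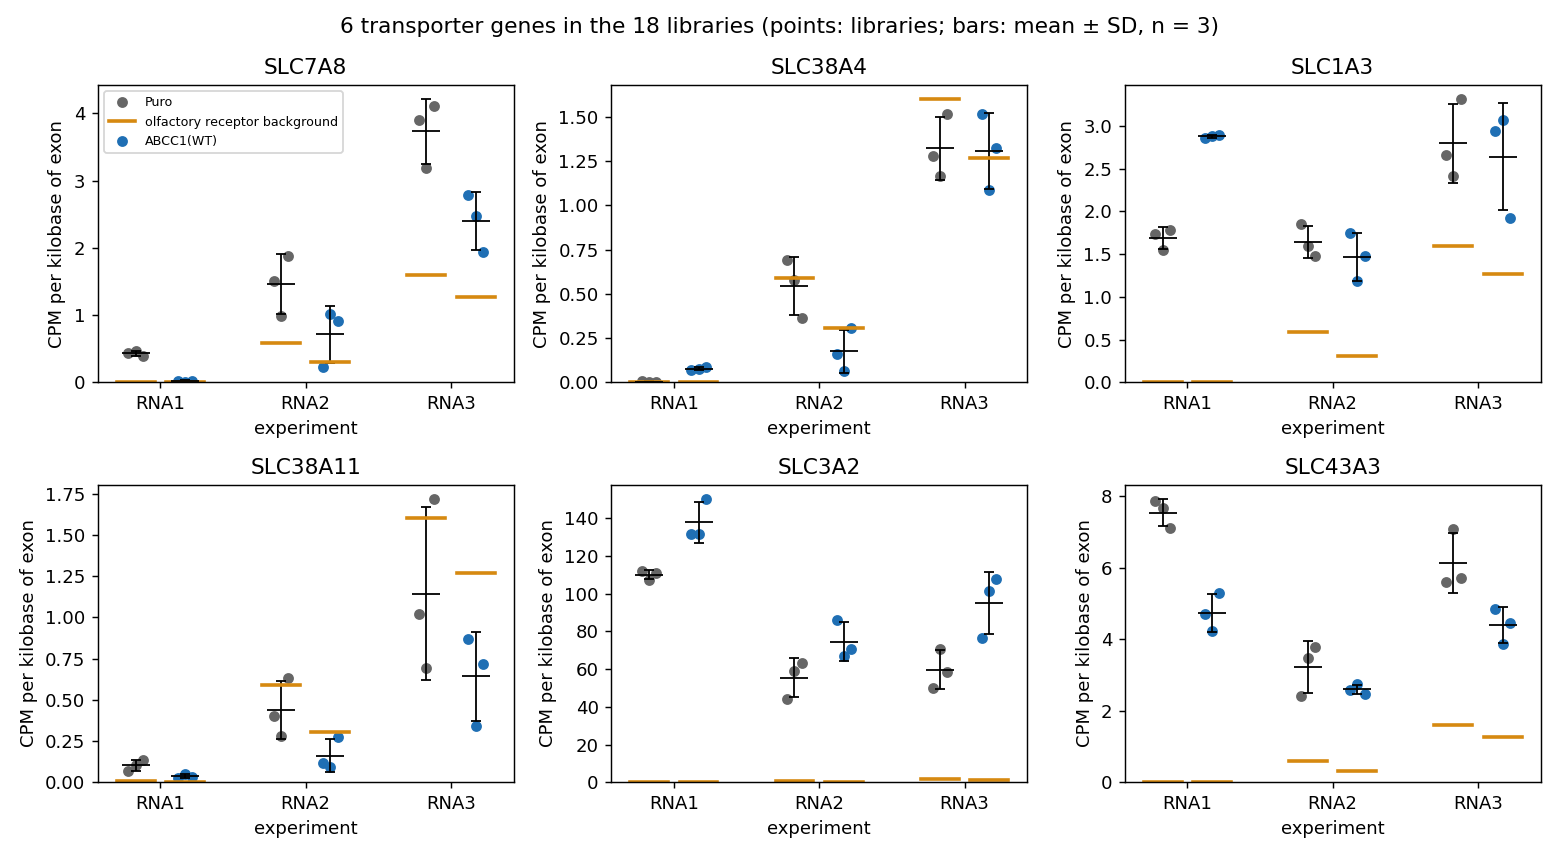
Level of 6 genes in the 18 libraries (CPM per kb of exon, linear axis from 0), with points for libraries, black bars for the mean ± SD of 3 libraries and orange lines for the mean olfactory receptor background of each group. SLC7A8 falls from 0.436 to 0.0195 CPM per kb in RNA1, and SLC3A2 lies higher in every ABCC1-overexpressing library than in any control library of the same experiment.

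The neutral exchangers SLC1A4 and SLC1A5 differed from each other in direction in RNA1. SLC1A4, the serine and alanine carrier ASCT1, fell by 0.31 on the log2 scale in RNA1 (log2FC −0.31, SE 0.039, adjusted P = 0.000136 by edgeR), from 25.7 ± 0.548 to 20.7 ± 0.497 CPM per kb. Its log2FC was 0.13 in RNA2 and −0.28 in RNA3, neither of them called. SLC1A5 had 198, 188 and 182 CPM per kb in the control libraries of RNA1 and 199, 198 and 229 in the ABCC1-overexpressing libraries. In RNA2 its values were 59.1, 84.9 and 78.4 against 107, 87.2 and 96.9, all in CPM per kb. In RNA3, SLC1A5 had 260.0, 411 and 285 CPM against 333, 405 and 436 CPM, without division by length. The groups did not overlap in RNA1 and RNA2 but overlapped in RNA3, and no single experiment gave a call by edgeR with TMM (log2FC 0.14, 0.39 and 0.30). It was called in RNA1 without a filter on low counts and in RNA3 without Puro replicate 2. The joint log2FC of SLC1A5 was 0.34 (SE 0.107, adjusted P = 0.0229 by edgeR). This call was lost in 7 of 22 alternative fits. It was lost with at least 10 counts in every library (0.16, adjusted P = 0.0884), without Puro replicate 2 (0.0559) or 3 (0.0597) or ABCC1(WT) replicate 3 (0.0792) of RNA1, without Puro replicate 1 of RNA2 (0.0564) and without ABCC1(WT) replicate 2 (0.0527) or 3 (0.0738) of RNA3.

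None of the cationic carriers, with SLC7A14 counted among them, was called within an experiment by edgeR with TMM, of 4 tested in RNA1 and 5 in each repeat, beside 37.6% of all genes in RNA1, 1.7% in RNA2 and 2.8% in RNA3. SLC7A1, the arginine carrier CAT1, had 126, 126 and 126 CPM per kb in the control libraries of RNA1 and 125, 123 and 134 in the ABCC1-overexpressing libraries, a log2FC of 0.02 (SE 0.046). In RNA2 SLC7A1 was at 24.0, 40.1 and 32.8 against 51.1, 40.1 and 40.0, with a log2FC of 0.44 (SE 0.20), and in RNA3 at 44.4, 62.2 and 39.8 against 46.9, 58.5 and 60.3, with a log2FC of 0.18 (SE 0.207). The groups overlapped in each experiment. SLC7A14, a lysosomal member of the family, had a log2FC of 0.04 in RNA1, 0.32 in RNA2 and 0.54 in RNA3, none called by edgeR with TMM. In RNA3 it was called with DESeq2, RLE size factors, at least 10 counts in every library or protein-coding genes only, and without Puro replicate 2 or ABCC1(WT) replicate 1. It was also called there with a block for replicate number. The joint log2FC was called, at 0.37 (SE 0.091, adjusted P = 0.00300 by edgeR), and was 0.18 with at least 10 counts in every library (adjusted P = 0.0136). SLC7A14 did not overlap between the lines in RNA2 and RNA3 and overlapped in RNA1.

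The sodium-coupled neutral carriers of the SLC38 family held 5 of the 12 calls of RNA1, which is 5 of the 10 tested, where 37.6% of all genes and 40.4% of protein-coding genes were called. SLC38A1 and SLC38A2, which carry glutamine and other small neutral amino acids, were both lower. SLC38A1 was at 106, 104 and 107 CPM per kb in control libraries and 93.0, 94.1 and 90.6 in ABCC1-overexpressing libraries, a log2FC of −0.19 (SE 0.041, adjusted P = 0.00396 by edgeR). In RNA2 SLC38A1 was at 17.7, 29.6 and 21.9 against 34.2, 27.6 and 26.6, and in RNA3 at 28.8, 36.4 and 28.5 against 26.4, 33.6 and 33.4, with overlapping groups and a log2FC of 0.36 and −0.004. SLC38A2 had a log2FC of −0.30 (SE 0.042, adjusted P = 0.000314) in RNA1, 0.11 in RNA2 and −0.10 in RNA3. SLC38A9, the lysosomal arginine sensor, had a log2FC of −0.36 (SE 0.059, adjusted P = 0.000850) in RNA1, −0.21 in RNA2 and −0.15 in RNA3. Its joint log2FC of −0.17 was not called, but it was called with DESeq2, with RLE size factors (−0.27, adjusted P = 0.0105 by edgeR) and with at least 10 counts in every library (−0.36, adjusted P = 7.87e-05). With at least 10 counts, SLC1A4, SLC38A2 and SLC38A7 were also called lower in the joint fit.

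SLC38A4, a further member of the SLC38 family, went the other way in RNA1 and rests on few counts. It lies at chr12:47158546-47226191 on the minus strand of GRCh37. It had 2, 0 and 0 counts in control replicates 1, 2 and 3 and 17, 10 and 21 in the ABCC1-overexpressing replicates, or 0.0112, 0 and 0 against 0.0732, 0.0755 and 0.0881 CPM per kb. The log2FC was 3.87 (SE 0.639, adjusted P = 0.000825 by edgeR), and the ratio of the counts scaled to library size was 16.7, with a 95% counting interval of 4.38 to 142. SLC38A4 passed the filter on low counts only through the ABCC1-overexpressing libraries, so its call among the 12 of RNA1 is a description. It did not pass the filter without Puro replicate 1 or without ABCC1(WT) replicate 1 or 3, nor with at least 10 counts in every library. In RNA2 SLC38A4 was at 0.691, 0.580 and 0.364 CPM per kb in control libraries and at 0.159, 0.0671 and 0.307 in ABCC1-overexpressing libraries, a log2FC of −1.59 (SE 0.579, adjusted P = 0.128). In RNA3 it was at 1.28, 1.17 and 1.52 against 1.51, 1.08 and 1.32, a log2FC of −0.01. In both repeats its level in control cells was below the mean olfactory receptor background, at 0.925 and 0.826 times. The difference between experiments had an adjusted P-value of 0.000126, held in the 21 alternative fits that could test it, and sets RNA1 against experiments in which SLC38A4 was not above background.

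SLC38A11, a member without a well known substrate, was the remaining SLC38 call of RNA1. It had 16, 16 and 23 counts in control replicates and 8, 9 and 10 in ABCC1-overexpressing replicates, a log2FC of −1.54 (SE 0.368, adjusted P = 0.00756 by edgeR). SLC38A11 passed the filter on low counts only through the control libraries, so this call is a description. Its values were −1.41 in RNA2 and −0.82 in RNA3, neither called, at 0.744 and 0.714 times the background in control cells. The joint log2FC was −1.18 (adjusted P = 0.000770). SLC36A1, a lysosomal proton-coupled carrier, rose by 0.18 on the log2 scale in RNA1 (SE 0.053, adjusted P = 0.0225), a call lost without Puro replicate 2 (adjusted P = 0.0902) or 3 (0.0623) or ABCC1(WT) replicate 1 (0.0608) of RNA1. The call was also lost with a block for replicate number (adjusted P = 0.0592 by edgeR).

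SLC36A3, another proton-coupled member, was the call of RNA2. It had 148, 149 and 93 counts in control replicates and 23, 45 and 59 in ABCC1-overexpressing replicates of RNA2, a log2FC of −1.72 (SE 0.397, adjusted P = 0.0296 by edgeR). In RNA1 it had 1 count over the 6 libraries, and in RNA2 its level in control cells was within the range of the olfactory receptor genes. The call was lost without Puro replicate 1 (adjusted P = 0.120), 2 (0.0690) or 3 (0.142) or ABCC1(WT) replicate 2 (0.0979) of RNA2, and with the background as a covariate (log2FC −1.0, adjusted P = 0.758). The covariate did not overlap between the lines, so that fit cannot split line from background.

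Among the SLC43 members, SLC43A3 was called lower in the ABCC1-overexpressing cells in RNA1 and in the joint fit. SLC43A3 carries purine nucleobases rather than amino acids, while SLC43A1 and SLC43A2 carry large neutral amino acids. The log2FC of SLC43A3 was −0.66 (SE 0.081, adjusted P = 0.000117 by edgeR) in RNA1, −0.31 (SE 0.209, adjusted P = 0.393) in RNA2 and −0.48 (SE 0.172, adjusted P = 0.116) in RNA3. Neither repeat was called by edgeR with TMM, but RNA3 was called with protein-coding genes only (adjusted P = 0.0448). The groups did not overlap in RNA1 and RNA3 but overlapped in RNA2. Its joint log2FC was −0.42 (SE 0.096, adjusted P = 0.00108), and 36.8% of its exon bases are shared with another Ensembl gene. SLC43A1 and SLC43A2 were not called in any experiment or in the joint fit by edgeR with TMM. SLC43A1 was called lower in the joint fit with at least 10 counts in every library (−0.21, adjusted P = 0.00742), and in RNA1 without ABCC1(WT) replicate 3.

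SLC7A6OS, the neighbour of SLC7A6 that is no carrier, was higher in RNA1 (log2FC 0.21, SE 0.068, adjusted P = 0.0326 by edgeR). It had a log2FC of 0.39 (adjusted P = 0.250) in RNA2 and 0.56 (adjusted P = 0.0767) in RNA3, with no overlap between the groups in any experiment. Neither repeat was called by edgeR with TMM, but RNA3 was called in other fits, such as with DESeq2 (adjusted P = 0.0251). Its level in the control cells of RNA3 was within the range of the olfactory receptor genes. Its joint log2FC was 0.45 (SE 0.092, adjusted P = 0.000243), and 0.27 with at least 10 counts in every library (adjusted P = 0.00732). The call in RNA1 was lost without Puro replicate 2 (adjusted P = 0.0788) or 3 (0.122), without ABCC1(WT) replicate 1 (0.102) or 2 (0.0637) and with DESeq2 (0.0756). It was also lost with a block for replicate number (adjusted P = 0.0657 by edgeR). SLC7A6OS shares 65.0% of its exon bases with SLC7A6, and read pairs were counted without regard to strand, so reads of these neighbours cannot be told apart there.

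The groups did not overlap for 15 of the 29 genes tested in RNA1, 7 with all ABCC1-overexpressing libraries above and 8 with all below. This is 51.7%, beside 50.4% of all genes tested. For RNA2 they did not overlap for 14 of 40, 7 above and 7 below, or 35.0% beside 29.8% of all genes. For RNA3 this held for 12 of 40, 4 above and 8 below, or 30.0% beside 19.5%. In RNA2 the direction went with the level. Of the 18 genes within the range of the olfactory receptor genes, 17 had a log2FC below 0, with a median of −0.62, and of the 22 genes above it 16 had a log2FC above 0, with a median of 0.16. The background itself had a log2 ratio of −0.94 in RNA2. In RNA3, 18 of the 26 genes within the range were below 0, with a median of −0.14, and 7 of the 14 above it. The part of the background in these values was not tested, since the fits with the covariate cannot split it from the line.

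**Figure D4:**
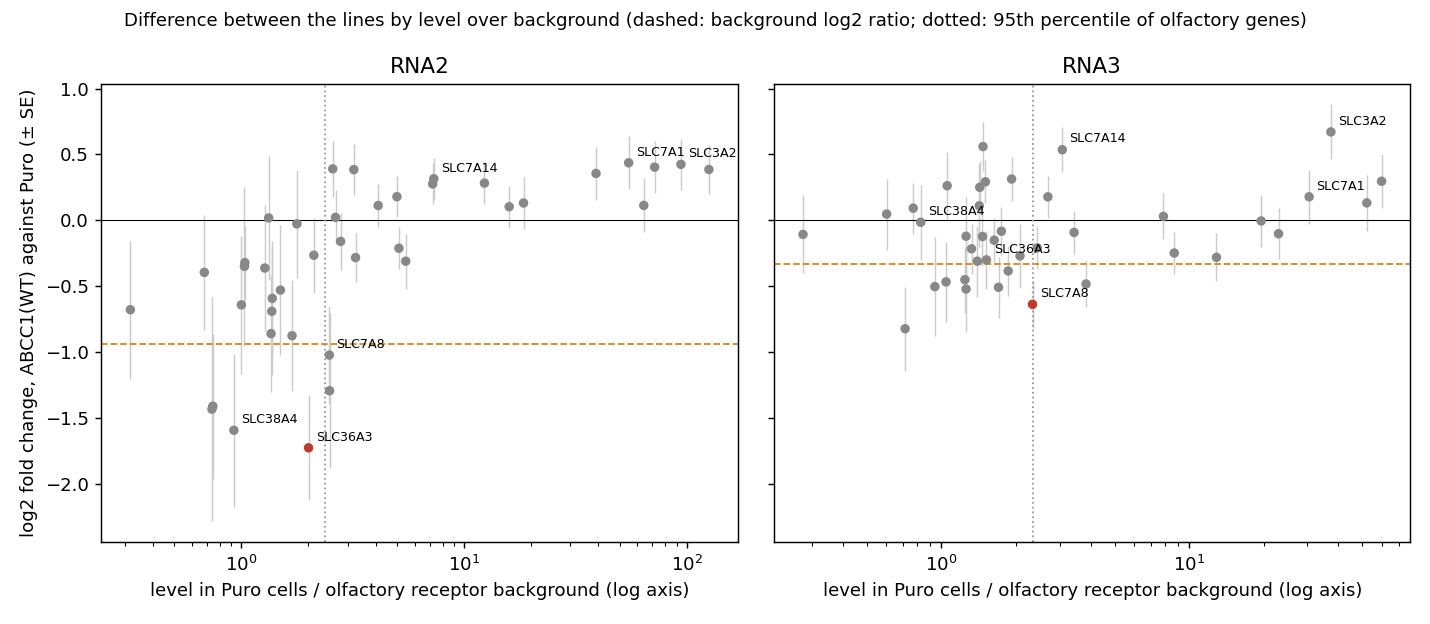
log2FC of each of the 40 genes (± SE) in RNA2 and RNA3 against its level in control cells as a multiple of the olfactory receptor background (log axis); the dashed line is the log2 ratio of the background and the dotted line the 95th percentile of the olfactory receptor genes. In RNA2, 17 of the 18 genes left of the dotted line are below 0 and 16 of the 22 right of it are above 0.

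In a list of 32 amino acid transporters of the SLC6, SLC16, SLC17, SLC25 and related families, 7 of 20 tested were called in RNA1 (4 higher, 3 lower, 35.0%), 1 of 32 in RNA2 and 0 of 32 in RNA3, beside 37.6%, 1.7% and 2.8% of all genes. In RNA2 this was SLC6A15, a sodium-coupled carrier of branched-chain amino acids and proline, which was higher, and its joint log2FC was 0.58 (adjusted P = 3.23e-06 by edgeR). In the joint fit 6 of the 32 were called, 4 higher and 2 lower, or 18.8%, beside 13% of all genes and 27.3% of protein-coding genes. The split was 3 higher and 6 lower with DESeq2, 2 and 5 with RLE size factors, and 2 and 3 with at least 10 counts in every library.

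In a list of 31 genes of amino acid sensing, 13 of 30 tested were called in RNA1 (6 higher, 7 lower, 43.3%), and 2 of 31 in each repeat (6.45%), beside 37.6%, 1.7% and 2.8% of all genes. For the joint log2FC 14 of the 31 were called, 13 higher and 1 lower, or 45.2%, beside 13% of all genes and 27.3% of protein-coding genes. The split was 13 higher and 4 lower with DESeq2, 10 and 4 with RLE size factors, and 7 and 6 with at least 10 counts in every library. WDR24, a subunit of the GATOR2 complex that acts upstream of mTORC1, had the largest joint log2FC of the called genes that were higher, 0.64 (adjusted P = 9.57e-07 by edgeR), and was called in both repeats. SESN3, of the sestrin family of leucine sensors, was the called gene that was lower, at −0.42 (adjusted P = 0.00439). Both lists were chosen with earlier results of these data known.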

How the data were processed

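RNA was sequenced from 18 libraries, 3 of each line in each of 3 experiments. Per the labels and the methods of the study, the authors made the reads with bcl2fastq 2.18, aligned them with STAR 2.7.3a and counted read pairs over exons by gene on build GRCh37 with featureCounts of Subread 2.0.0, without regard to strand. The authors deposited these counts per gene without normalization. For RNA1 the labels name 2 library kits. Gene types and symbols were matched for 52338 of 57905 Ensembl rows.

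Spike-in and vector rows were left out. Each experiment was fitted in R 4.3.3 with edgeR 4.0.16 (filterByExpr at a minimum count of 10, TMM, robust quasi-likelihood test, two-sided). P-values were adjusted by the Benjamini-Hochberg method over all genes tested, and genes were called at 0.05 or less. The joint fit had 1 term for each experiment and line. The scripts were tested on simulated data with 200 genes changed.

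DESeq2 1.42.0, RLE size factors, other filters, protein-coding genes only, a block, a background covariate and leaving out each library were the alternatives. Counting intervals are exact at 95% and hold for counting error alone, as no molecular identifiers were used to count molecules. No 2 libraries of a group agreed within sampling noise. The members and lists were chosen with earlier results of these data known. Values in every library are given for genes called in 2 experiments, for those whose effect differed between experiments and for the 5 highest in RNA1. SLC36A3, SLC38A11 and SLC43A3, and the olfactory percentile as a limit, were chosen after their values were seen.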

Additional observations from a re-analysis of the deposited data

Results flagged for a closer look

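The effect of ABCC1 on 3 transporter genes differed between the experiments by the F test of the interaction of experiment and line in edgeR, adjusted over all genes tested. SLC7A8 had log2FC values of −4.28, −1.02 and −0.64 in RNA1, RNA2 and RNA3, with an adjusted P-value of the difference of 1.61e-05, and all 3 values have the same sign. It passed the filter of RNA1 only through the control libraries, so its RNA1 value is a description. With the background as a covariate the SLC7A8 values were 0.19 in RNA2 and −0.15 in RNA3, neither called. The background itself had log2 ratios of −0.94 and −0.33 there without overlap of the lines, so this fit cannot split line from background. After subtraction of the mean background of each group, the log2 ratios of the SLC7A8 means were −4.80, −1.08 and −0.91. SLC38A4 had 3.87, −1.59 and −0.01, with an adjusted P-value of 0.000126, and was at or below the olfactory receptor background in the control cells of each experiment. It passed the filter of RNA1 only through the ABCC1-overexpressing libraries, with 2, 0 and 0 counts in control libraries, so its difference is a description. SLC1A3 had 0.77, −0.16 and −0.08, with an adjusted P-value of 0.0176, which rose to 0.134 without Puro replicate 2 of RNA1. After subtraction of the mean background of each group its log2 ratios were 0.77, 0.14 and 0.20, all of 1 sign, and in RNA3 its level in control cells was within the range of the olfactory receptor genes.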

How the results depend on the processing

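The numbers of genes called in RNA1 and for the joint log2FC stayed within 1.5 times under every alternative run, for all genes and for the 40 transporter genes. In RNA2, where 581 genes were called, DESeq2 called 2727, RLE size factors 1086, no filter 1402 and the background covariate 12. Of the 40 genes, 1 was called, against 2 without a filter and 0 with the covariate. In RNA3, with 1021 genes called, DESeq2 called 1549, at least 10 counts in every library 1726, protein-coding genes only 1900 and the covariate 148. The 40 genes held 4, 4, 5 and 0 calls there, and 2 with RLE size factors. The covariate did not overlap between the lines in RNA2 or RNA3, so its fits cannot split line from background. The difference between experiments was called for 550 genes, 891 with DESeq2 and 363 with at least 10 counts in every library, which left 23 of the 40 genes and 1 call. Leaving out 1 library gave 4663 to 7819 genes in RNA1, 5 to 1258 in RNA2, 393 to 2770 in RNA3, 4897 to 7197 for the joint log2FC and 334 to 1105 for the difference. The 40 genes held 10 to 13, 0 to 2, 0 to 6, 6 to 10 and 2 to 4 calls. The lowest and highest counts in RNA2 came without Puro replicate 3 and without ABCC1(WT) replicate 3, and those in RNA3 without ABCC1(WT) replicate 3 and without Puro replicate 2. The cause was not tested.

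Among the called values and SLC7A8 in RNA2, the latter changed sign, at 0.19 with the covariate. In the joint fit with at least 10 counts in every library, SLC36A4, SLC38A1, SLC38A10 and SLC7A2 turned from above to below 0, uncalled in both fits. Relative to TMM, RLE size factors moved the median of all genes by 0.11 (log2) in RNA2, and at least 10 counts in every library moved that of the joint log2FC by −0.18. The share of calls higher in ABCC1 cells was 73.1% in RNA2, 83.0% with DESeq2, 49.5% with protein-coding genes only and 44.4% with at least 10 counts in every library, and 72.6% in RNA3, 89.1% with DESeq2 and 20.3% with the covariate. Among 298 alternative values of 23 uncalled pairs of gene and experiment, for the 13 genes called in another experiment and without SLC7A8 in RNA2, 29 changed sign, none of them called, and 16 became called, all in RNA3 and all for SLC3A2, SLC7A6OS, SLC38A11 or SLC43A3.

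Replicate numbers did not pair the libraries: same-numbered deviations correlated at −0.09 in RNA1, −0.08 in RNA2 and 0.05 in RNA3 on average. With the replicate block, RNA3 gave 1885 genes and 4 of the 40, SLC3A2 (adjusted P = 0.00511 by edgeR), SLC7A6OS, SLC7A14 and SLC7A8, SLC7A10 was also called in RNA1, and SLC36A1 and SLC7A6OS were not called in RNA1 (adjusted P = 0.0592 and 0.0657 by edgeR). SLC7A8 in RNA2 was called without a filter (adjusted P = 0.0361). In control cells 18 of the 40 genes in RNA2 and 26 in RNA3 lay within the range of the olfactory receptor genes. Depth as a limit was not tested.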
